A study of Homo sapiens with 4 samples.

Results

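The cluster of hsa-miR-183, hsa-miR-96 and hsa-miR-182 was described across 4 small RNA libraries by these 3 members. Members were the deposited miRNA names equal to these, without the star names of their opposite arms, and they were 3 of the 1100 names that each library lists. All 3 were above 0 in all 4 libraries. The members are cut from 1 primary transcript, first by Drosha, which frees the hairpins, and then by Dicer, which frees the mature miRNAs, and each hairpin can pass these steps with its own yield. The cluster is known for its high level in sensory cells of the eye and ear, and it is also made in many epithelia and carcinomas. Forkhead transcription factors such as FOXO1 and FOXO3 are among the reported targets of miR-96 and miR-182, and mutations in the seed of miR-96 cause a hereditary hearing loss.

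The study set exosomes, which are small secreted vesicles, beside the cells that shed them, in 2 human breast lines. The cancer line MDA-MB-231, of the triple-negative and mesenchymal kind, was cultured in DMEM with 10% fetal bovine serum. The line MCF-10A, immortal but not tumour-forming and of mammary epithelial origin, was cultured in DMEM/F12 with 5% horse serum, insulin, EGF, cholera toxin and hydrocortisone. The groups were exosomes and cells of MDA-MB-231 and exosomes and cells of MCF-10A, with 1 library each. The differences below are therefore between single libraries, without replicates, and carry no p-value. The sources used here do not say how exosomes were isolated or whether vesicles were first removed from the serum.

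The mature sequences are shown because the members differ in the bases that pair with targets. They are RefSeq sequences on GRCh38.p14, read 5′ to 3′, with the seed (bases 2 to 8) in capitals, and all 3 members had an entry. The unstarred names were matched to the 5p arms.
hsa-miR-183: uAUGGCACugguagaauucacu
hsa-miR-96: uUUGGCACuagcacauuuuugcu
hsa-miR-182: uUUGGCAAugguagaacucacacu
No seed was shared between members. Counting from 1 at the 5′ end, with the first-named base first, miR-183 and miR-96 differed in the seed by A2U, miR-96 and miR-182 by C8A, and miR-183 and miR-182 by both A2U and C8A. Over the whole length the order was different. From base 1 without gaps, miR-183 and miR-182 were identical at 18 of 22 bases, miR-183 and miR-96 at 13 of 22, and miR-96 and miR-182 at 12 of 23. Of all other human mature miRNAs in the RefSeq table, only miR-1271-5p shared a seed with a member: its bases 2 to 8 equal those of miR-96, and its bases 2 to 7 also equal those of miR-182.
hsa-miR-1271-5p: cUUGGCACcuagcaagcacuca

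The deposited files give no coordinates. In GENCODE release 29 on GRCh38, a later build than the hg18 of the submitters' processing notes, the hairpins lie on the minus strand of chromosome 7, with MIR183 first in the direction of transcription at 129774905 to 129775014. MIR96 follows after 135 bases at 129774692 to 129774769, and MIR182 after a further 4199 bases at 129770383 to 129770492. The cluster spans 4632 bases and overlaps no other gene of that annotation. The hairpins of MIR182 and MIR96 show that both arms, in capitals, come from 1 stem, with the member on the 5′ side and the star name on the 3′ side.
MIR182: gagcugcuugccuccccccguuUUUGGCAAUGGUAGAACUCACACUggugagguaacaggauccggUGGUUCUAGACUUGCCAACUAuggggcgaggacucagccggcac
MIR96: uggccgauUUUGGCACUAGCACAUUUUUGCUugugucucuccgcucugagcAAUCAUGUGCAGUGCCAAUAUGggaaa

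A level below is the deposited value, which is the log2 of 1 plus the reads per 10000000, a scale that was read from the values themselves. Whole reads recovered from the steps of the low values put the depths between 1254641 reads (MCF-10A exosomes) and 10937883 reads (the library labelled MCF-10A cell). Intervals are 95% and cover counting error only, because amplified reads without molecular identifiers are not independent molecules. The content of the library labelled MCF-10A cell differed from that of the others. Names on 7 lists of miRNAs of other tissues (muscle, mesenchyme, endothelium, red cells, leukocytes, liver, and nerve and sensory organs) took 47.1% of its reads, with 30 of 31 names at 10 reads or more. The same lists took 2.39% in exosomes (20 of 31 names) and 0.113% in cells (10 of 31) of MDA-MB-231, and 0.106% in exosomes of MCF-10A (13 of 31). All 8 names of an epithelial list (the miR-200 family, miR-205, miR-203 and miR-31) had 10 or more reads in both MCF-10A libraries. In MDA-MB-231, 6 of the 8 did so in exosomes and 5 in cells. Because depths differ, 10 reads are not the same level in each library.

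The cluster was most abundant in MCF-10A exosomes. Its share of all miRNA reads was 0.548% (Wilson interval 0.536 to 0.559) in exosomes and 0.629% (0.624 to 0.635) in cells of MDA-MB-231. It was 4.03% (3.99 to 4.06) in exosomes of MCF-10A beside 0.0481% (0.0468 to 0.0494) in the library labelled MCF-10A cell. miR-182 led the cluster in all 4 libraries. It stood at 15.02 in MDA-MB-231 exosomes (5093 reads, rank 35 of 508 names above 0) and 15.38 in MDA-MB-231 cells (31325 reads, rank 26 of 566). In MCF-10A exosomes it stood at 18.16 (36747 reads, rank 8 of 436), while the library labelled MCF-10A cell had it at 11.29 (2738 reads, rank 153 of 794). The libraries of MCF-10A were the highest and the lowest of the 4, with those of MDA-MB-231 between them.

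miR-183, the first hairpin of the transcript, kept the same extremes. Its level was 14.37 in exosomes (3246 reads) and 14.18 in cells (13634 reads) of MDA-MB-231, and it was 16.7 in exosomes of MCF-10A (13357 reads) beside 10.65 in the library labelled MCF-10A cell (1756 reads). The levels of miR-183 in the MDA-MB-231 libraries lay closer together than those of any other adjacent libraries in its order. miR-96, the least abundant member in all 4 libraries, had another order. It stood at 8.46 in exosomes (54 reads) and 10.75 in cells (1264 reads) of MDA-MB-231, and at 11.73 in exosomes of MCF-10A (426 reads) beside 9.46 in the library labelled MCF-10A cell (769 reads). MDA-MB-231 exosomes, not the library labelled MCF-10A cell, were lowest in miR-96, and that value rests on the fewest reads of the 12.

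**Figure D1:**
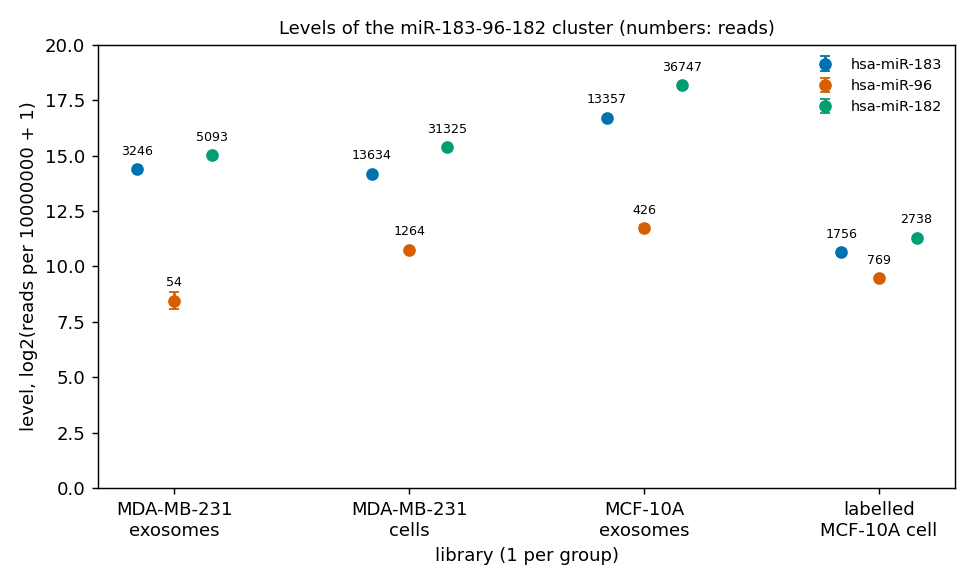
Level of each member (y axis, log2 of reads per 10000000 plus 1) in each of the 4 libraries (x axis, 1 library per group), with the recovered reads printed above each point and 95% Wilson counting intervals as bars, most of them smaller than the point. miR-182 and miR-183 peak in MCF-10A exosomes (18.16 and 16.7) and are lowest in the library labelled MCF-10A cell, whereas miR-96 is lowest in MDA-MB-231 exosomes (8.46).

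In exosomes, all 3 members were lower for MDA-MB-231 than for MCF-10A. miR-96 had the lowest log2 difference, at -3.27, or 9.64-fold lower (7.25 to 13.0), followed by miR-182 at -3.14, or 8.82-fold lower (8.56 to 9.08). These intervals overlap, so counting does not resolve the order of miR-96 and miR-182. miR-183 was 5.03-fold lower (4.84 to 5.23; log2 difference -2.33). Summed over the members, the cluster was 7.36-fold lower (7.19 to 7.53). A size of at least 4-fold lower was reached by 3 of 3 members, against 19% of the 505 names that reached 10 reads per 10000000 in either library. The median log2 difference was -3.14 over the members and 0.59 over all 505 names. Counted from the lowest, miR-96, miR-182 and miR-183 ranked 63, 65 and 88 of them. On the epithelial list 8 of 8 names were lower by that size or more, with a median of -6.28. miR-31 had 0 reads in exosomes of MDA-MB-231, and with it at the limit of 3 reads the list's median was -4.84, still with 8 of 8 lower, and miR-200a was the least lowered at -2.57. As in all bulk libraries, fewer vesicles or cells that carry a miRNA and fewer copies in each cannot be told apart.

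Between the cell libraries the direction was the opposite. miR-182 was 17.0-fold higher (16.4 to 17.7) in MDA-MB-231 cells than in the library labelled MCF-10A cell, with a log2 difference of 4.09. miR-183 was 11.6-fold higher (11.0 to 12.2; 3.53), and miR-96 was 2.45-fold higher (2.24 to 2.68; 1.29), within 4-fold. Thus 2 of 3 members were at least 4-fold higher, against 17.3% of 665 names, and the median was 3.53 over the members and -2.83 over all names. The epithelial list went with most names and against the cluster: 7 of its 8 names were lower by 4-fold or more in cells of MDA-MB-231, as were 54.3% of all names, and 1 was within, with a median of -6.68, or -5.50 with miR-205 and miR-31, at 0 in cells of MDA-MB-231, set at 3 reads. The name within 4-fold was miR-429, at -0.86. Reads on the lists of other tissues lower the share of every other name in the library labelled MCF-10A cell. Over the reads outside those lists, the cluster took 0.630% in MDA-MB-231 cells beside 0.0910% in the library labelled MCF-10A cell, and the log2 differences were 3.17 for miR-182, 2.61 for miR-183 and 0.37 for miR-96. Upper-quartile scaling raised the median of all names by 2.40 and put 226 of the 665 at least 4-fold higher, against 115 without it. Under it the log2 differences were 6.53 for miR-182, 5.97 for miR-183 and 3.73 for miR-96, which then passed 4-fold.

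The low level of the cluster in the library labelled MCF-10A cell stood beside reads of miRNAs of nerve and sensory organs, where the cluster itself is also made. They were a small part of its content of other tissues, in which mesenchymal names took 30.2% of all reads and muscle names 12.4%. The 9 names of nerve and sensory organs took 0.403% of its reads, against 0.0603% to 0.0780% in the other libraries. Of the 9, 8 had 10 reads or more there, against 4 or 5 in each of the others. The names did not all have their highest level there. miR-124, a miRNA of neurons, stood at 13.54 there and had no reads elsewhere, whereas miR-7 stood at 9.91, below its 12.55 in exosomes and 12.12 in cells of MDA-MB-231 and its 11.15 in exosomes of MCF-10A. miR-137 was also lower there, at 10.18, than in exosomes of MCF-10A, at 11.57. The part of this content in the cluster's level was not tested.

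Within MDA-MB-231, exosomes and cells held the cluster at close levels, apart from miR-96. miR-182 was 1.28-fold lower in exosomes than in cells (1.25 to 1.32; log2 difference -0.36). miR-183 was 1.14-fold higher (1.10 to 1.19; 0.19), a direction that turned under upper-quartile scaling, to -0.07. miR-96 was 4.88-fold lower in exosomes (3.72 to 6.54; -2.29), with 54 reads in exosomes and 1264 in cells, so that the interval of its fold reaches below 4-fold. Of the members, 1 of 3 was at least 4-fold lower, beside 13.4% of 499 names, and the median of all names was -0.09. Of 7 epithelial names compared, 1 was lower, 2 were higher, beside 22.2% of all names, and 4 were within 4-fold, the range running between -2.04 for miR-429 and 4.16 for miR-203. The higher names include miR-205, which rests on 2 reads in exosomes and 0 in cells, and with it at 3 reads 1 name was higher.

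Within MCF-10A, all 3 members were higher in exosomes than in the library labelled MCF-10A cell. miR-182 was 117-fold higher (113 to 122; log2 difference 6.87), a difference passed by only 2 of the 661 names compared. miR-183 was 66.3-fold higher (63.1 to 69.7; 6.05), with 6 names above it. miR-96 was 4.83-fold higher (4.28 to 5.44; 2.27), and over the reads outside the lists of other tissues it was within 4-fold, at 1.35. The size of the other folds also depends on the scaling: miR-182 stood at 5.95 and miR-183 at 5.13 over the reads outside those lists. Under upper-quartile scaling the log2 differences were 9.50 for miR-182, 8.68 for miR-183 and 4.89 for miR-96, and 31.9% of all names were at least 4-fold higher. At least 4-fold higher were 3 of 3 members and 15.4% of all names, whose median was -3.27. The members' median was 6.05, and that of the epithelial list was 0.28, with 2 names higher and 6 within 4-fold, between -1.64 for miR-200b and 3.14 for miR-200c.

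The exosome-to-cell difference of MDA-MB-231 minus that of MCF-10A was -7.23 for miR-182, -5.86 for miR-183 and -4.56 for miR-96 on the log2 scale. The median over 701 names was 2.91, so the members lay on the other side of 0 from most names. Counted from the lowest, they ranked 13, 22 and 48. All of these differences contain the library labelled MCF-10A cell.

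**Figure D2:**
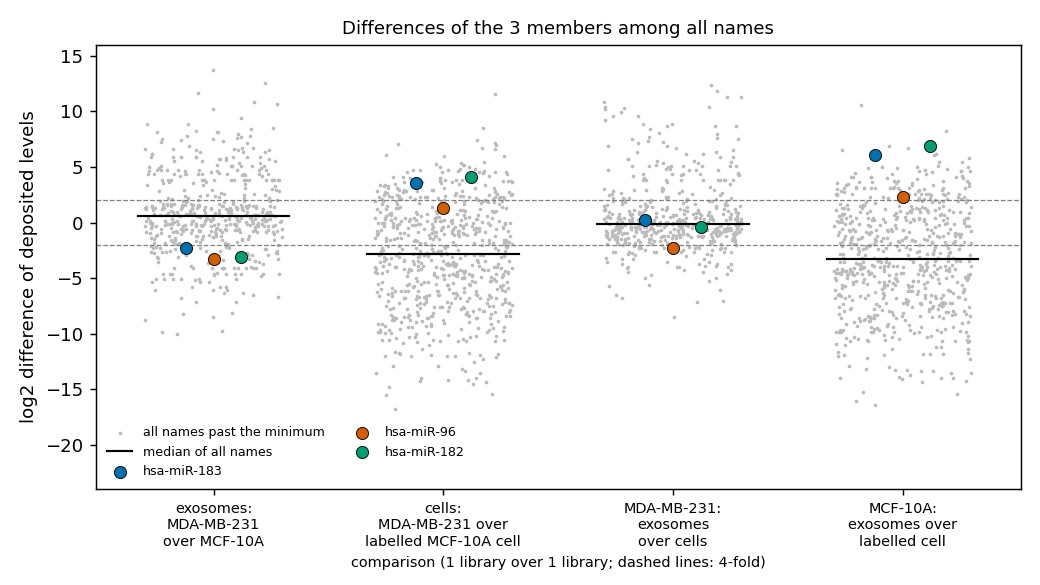
Log2 difference of deposited levels (y axis) for the 4 comparisons (x axis), each of 1 library over 1 library. Grey points are all names that reached 10 reads per 10000000 in either library compared, black bars their medians (0.59, -2.83, -0.09 and -3.27 from left to right), coloured points the members and dashed lines 4-fold; the members lie below the median in the first comparison and above it in the second and the last.

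Ratios between members do not depend on how a library is scaled. A ratio of reads of different sequences is not a ratio of molecules, since sequences are ligated and amplified with different yield, so changes of a ratio between libraries carry more than its size. The ratio of miR-182 to miR-183, the members most alike in sequence, was 1.57 in exosomes (1.5 to 1.64) and 2.30 in cells (2.25 to 2.34) of MDA-MB-231, and 2.75 in exosomes of MCF-10A (2.70 to 2.81) beside 1.56 in the library labelled MCF-10A cell (1.47 to 1.66). Between exosomes it was 1.75-fold lower for MDA-MB-231 than for MCF-10A (1.67 to 1.84), and it differed by less than 2-fold across the series. The libraries with the lowest values, the library labelled MCF-10A cell and exosomes of MDA-MB-231, were not distinguishable by counting.

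The ratios to miR-96 varied far more. The ratio of miR-182 to miR-96 was 94.3 in exosomes (72.2 to 126) and 24.8 in cells (23.4 to 26.2) of MDA-MB-231, and 86.3 in exosomes of MCF-10A (78.4 to 95.1) beside 3.56 in the library labelled MCF-10A cell (3.29 to 3.86). It did not differ detectably between the exosomes of the lines, at 1.09-fold (0.823 to 1.45), while the cell libraries differed 6.96-fold (6.31 to 7.68). The ratio of miR-183 to miR-96 was 60.1 in exosomes (46.0 to 80.2) and 10.8 in cells (10.2 to 11.4) of MDA-MB-231, and 31.4 in exosomes of MCF-10A (28.5 to 34.6) beside 2.28 in the library labelled MCF-10A cell (2.10 to 2.49). Both ratios were therefore higher in exosomes than in the library labelled as cells of the same line. In MDA-MB-231 they were 3.81-fold (2.89 to 5.01) and 5.57-fold higher (4.23 to 7.34), and in MCF-10A 24.2-fold (21.4 to 27.4) and 13.7-fold higher (12.1 to 15.6).

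Seen as shares of the cluster's own reads, miR-96 made up 0.643% in MDA-MB-231 exosomes (Wilson interval 0.493 to 0.838) against 2.73% in MDA-MB-231 cells (2.59 to 2.89). In MCF-10A it was 0.843% in exosomes (0.767 to 0.927) against 14.6% in the library labelled MCF-10A cell (13.7 to 15.6). miR-183 took 38.7% of the cluster in exosomes and 29.5% in cells of MDA-MB-231, but 26.4% in exosomes of MCF-10A beside 33.4% in the library labelled MCF-10A cell. The shift of miR-96 thus had the same sign in both lines and that of miR-183 did not. In MDA-MB-231 the miR-96 share in exosomes came from 54 reads. In MCF-10A the shift was taken against a library labelled as cells in which names of other tissues took 47.1% of the reads. Whether reads from other tissues changed the shares and ratios of the members in that library was not tested.

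**Figure D3:**
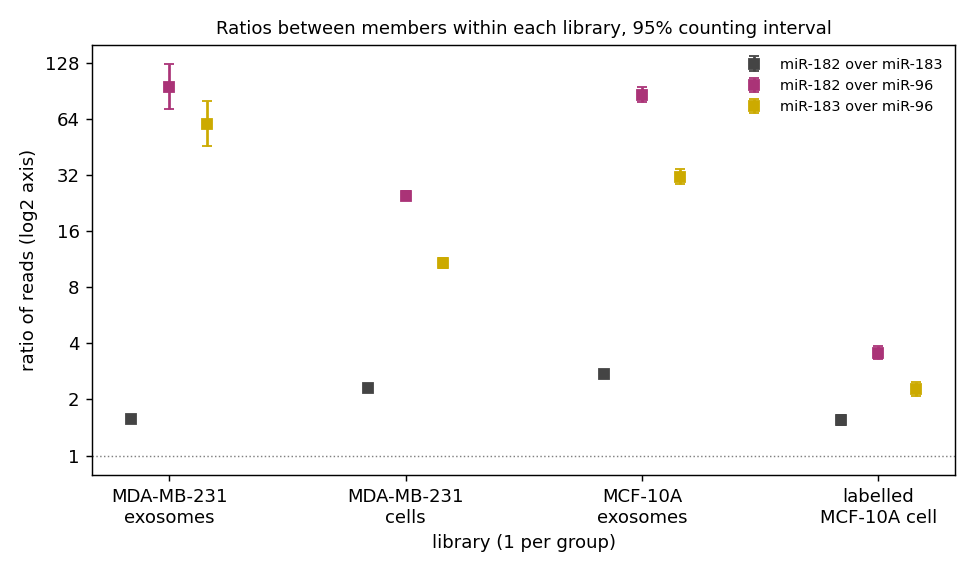
Ratio of recovered reads between members (y axis, log2 axis) within each of the 4 libraries (x axis, 1 library per group), with exact 95% counting intervals as bars. The ratio of miR-182 to miR-183 stays between 1.56 and 2.75. Both ratios to miR-96 are higher in exosomes than in the library labelled as cells of the same line.

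The same measure was taken for pairs of neighbours in 11 other clusters made from 1 transcript, such as miR-200c with miR-141 or miR-106b with miR-93, each with at least 10 reads of both names in all 4 libraries. They were 20 of the 25 pairs listed in 16 clusters. Pairs with a name below that minimum in any library were left out, whatever their range, so the counts below hold only for the 20. The log2 range of a ratio over the 4 libraries had a median of 2.53 over these 20 pairs, between 0.70 for miR-23a with miR-27a and 9.13 for miR-424 with miR-503. It was 0.82 for miR-182 with miR-183, exceeded by 19 of the 20 pairs. It was 4.73 for miR-182 with miR-96 and 4.72 for miR-183 with miR-96, each exceeded by 2 of the 20. Without the library labelled MCF-10A cell, the ranges were 0.81, 1.93 and 2.48, and 14, 3 and 2 of the 20 pairs exceeded them. A shift of 2-fold or more in the same direction from cells to exosomes in both lines was seen for both ratios to miR-96 and for 2 of the 20 other pairs, miR-106b with miR-93 and miR-424 with miR-503, named after their values were seen. In all, 6 of the 20 other pairs shifted by 2-fold or more in both lines, and the rest of these 6 did so in opposite directions. Pairs that share a member are not independent, and with 1 library per group these counts describe the libraries only.

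**Figure D4:**
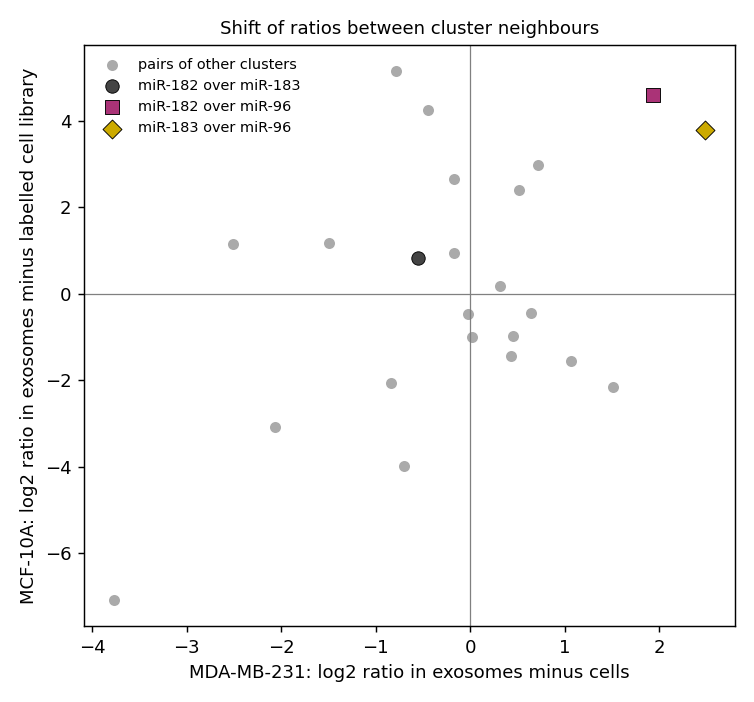
Log2 ratio between cluster neighbours in exosomes minus cells for MDA-MB-231 (x axis) and in exosomes minus the library labelled cell for MCF-10A (y axis), with 1 point per pair of names. The ratios of miR-182 and miR-183 to miR-96 lie at the upper right (1.93 and 2.48 on the x axis, 4.60 and 3.78 on the y axis). Of the 20 grey pairs of other clusters 6 lie past 2-fold on both axes, 2 of them at the lower left. Writing the other name of a pair first moves it to the opposite corner.

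The opposite arms were rare: miR-183*, the 3p arm of the miR-183 hairpin, had 5 reads in exosomes and 130 in cells of MDA-MB-231, and 36 in exosomes of MCF-10A beside 28 in the library labelled MCF-10A cell, while miR-182* had at most 4 reads and miR-96* had 0, which allows up to 3. In MDA-MB-231 the ratio of miR-183 to miR-183* was higher in exosomes, at 649 (278 to 2001) against 105 (88.2 to 126) in cells. For MCF-10A it was 371 (268 to 530) in exosomes against 62.7 (43.2 to 94.7) in the library labelled MCF-10A cell. The intervals did not overlap within a line. Such ratios were not computed for hairpins outside the cluster, so a difference particular to this hairpin is not shown.

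miR-1271, whose seed is that of miR-96, was highest in the library in which miR-182 and miR-183 were lowest. It had 0 reads in exosomes and 3 in cells of MDA-MB-231, and 0 in exosomes of MCF-10A beside 152 in the library labelled MCF-10A cell, where it stood at 7.13. miR-96 was the more abundant of the pair in all 4 libraries.

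Across the 4 libraries, miR-182 and miR-183 were each other's nearest neighbour. Likeness was the root mean square difference of levels centred on each name's own mean, among the 566 names that reached 50 reads per 10000000 in any library. It was 0.35 log2 between miR-182 and miR-183, the smallest of 565 for either. miR-96 was the neighbour of rank 75 for miR-183 and of rank 67 for miR-182, at 1.79 and 1.91, and its own nearest name was miR-1255a at 0.51. The 5 names nearest to the mean profile of the members were miR-582-3p (0.52), miR-3065-3p (0.59), miR-627 (0.59), miR-3176 (0.60) and miR-135b* (0.61). All of these stood at 9.79 or lower in MCF-10A exosomes, where miR-182 stood at 18.16. They share the same 4 libraries and depths as the members, and none of them stayed among the nearest 5 when the library labelled MCF-10A cell was left out. Without it, miR-182 and miR-183 were also no longer each other's nearest neighbour. Centred levels in MDA-MB-231 exosomes and cells and MCF-10A exosomes were then -1.17, -0.81 and 1.97 for miR-182. They were -0.71, -0.90 and 1.62 for miR-183, and miR-190, at -1.02, -0.58 and 1.59, lay closer to each.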

How the data were processed

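Small RNAs were sequenced from 4 libraries, 1 per group. Per the labels' protocols, RNA was extracted with TRIzol, small RNAs of 17 to 52 nt were selected, 5′ monophosphate ends were ligated, and a Genome Analyzer IIx gave the reads. The submitters' processing notes name Novoalign, edgeR and hg18, with no role stated. The step from reads to names and the miRBase release are not given in the sources used here. For 1100 names, the authors deposited log2 values with 2 decimals.

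Their scale was found from the sums: reversing log2(x + 1) gives about 10000000 per library. The step that made the most low values whole gave 1532907, 7346081, 1254641 and 10937883 reads (MDA-MB-231 exosomes and cells, MCF-10A exosomes and cells); 100% of the 286 to 334 names resolvable to under 0.5 reads were whole within the rounding. Larger reads are known to 0.347%. Recovery was tested on simulated data.

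Folds used a minimum of 10 per 10000000, a pseudocount of 1 and a size of 4-fold. Folds and ratios within a library have exact conditional binomial 95% intervals, shares have Wilson intervals, and changes of a ratio between libraries have intervals from the normal approximation to the log odds ratio. A name at 0 entered folds at level 0 with the pseudocount, and list medians were also computed with it at 3 reads. The named miRNAs were the members, their star arms, names sharing bases 2 to 8 or 2 to 7 with a member, the 5 nearest names, and the extremes of the pairs and of the epithelial list. miR-124, miR-7, miR-137, miR-1255a, miR-190 and the pairs of the shift count were named after their values were seen. The members and lists were chosen with earlier results of these data known. The alternatives were 4 scalings, another pseudocount, size and minimum, recovered reads, and another measure of likeness. Python 3.11.15, scipy 1.17.1 and pandas 2.3.3 were used.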

Additional observations from a re-analysis of the deposited data

Results flagged for a closer look

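The difference between the lines had opposite directions in exosomes and in cells for all 3 members. The medians of all names also had opposite signs, at 0.59 in exosomes and -2.83 in cells, each on the other side of 0 from the members. The share of all names with opposite directions is not given here. The gaps below are the differences of the exosome-to-cell fold given above, arranged in another way. MDA-MB-231 over MCF-10A was -3.14 in exosomes and 4.09 in cells for miR-182 (a gap of -7.23 on the log2 scale), -2.33 and 3.53 for miR-183 (-5.86), and -3.27 and 1.29 for miR-96 (-4.56). With 1 library per group this difference between fractions was not tested, and the values between cells take in the library labelled MCF-10A cell, in which names of other tissues took 47.1% of the reads.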

How the results depend on the processing

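Directions of the 12 differences were kept under all 4 scalings, except that of miR-183 between MDA-MB-231 exosomes and cells. The count of members past 4-fold in exosomes between the lines stayed at 3 under the 4 scalings, beside 18.6% to 21.8% of 505 names. It was also 3 at a 2-fold size, beside 26.1% of all names. Between cells the count was 2, and it was 3 under upper-quartile scaling (226 of 665 names) or at a 2-fold size (22.7% of all names). In MCF-10A it was 3, and 2 over the reads outside the lists of other tissues (10.9%). Counting instead names of 10 or more recovered reads whose interval excludes no difference gave 2 members lower in MDA-MB-231 exosomes than in cells, beside 36.3% of 427 names, where 1 was at least 4-fold lower. By this rule 3 members were lower in exosomes between the lines (28.7% of 342 names) and 3 higher between cells (26.5% of 661). Within MCF-10A, 3 were higher in exosomes (18.9% of 629). The members' median difference between the lines of the exosome-to-cell fold was -5.86, and -8.75, -6.46 and -4.91 under upper-quartile scaling, median-ratio scaling and the total outside the lists. All 24 recomputed ratios lay within their counting intervals. This was bound to happen, because they came from the same deposited values or from the reads behind the intervals, so it is no check of the ratios. Of the 5 nearest names, 2 were also nearest by Pearson r and 0 without the library labelled MCF-10A cell, an alternative chosen after seeing the data. Leaving out a replicate was not possible with 1 library per group. Read numbers limit miR-96 in MDA-MB-231 exosomes most, with 54 reads.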
